A study of Arabidopsis thaliana with 8 samples.

Results

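Root tips of the brassinosteroid mutant bin2-1 were compared with root tips of ABA-treated wild type, gene by gene. The bin2-1 group carries the bin2-1 allele in the Columbia background, and the labels do not state whether its roots received ABA. The Col+ABA group is Columbia wild type given 100 µM ABA for 3 h. Col-ABA, wild type taken through the same treatment step without ABA, sets the common scale and serves as a baseline; the labels name no mock solution, and no treatment time is recorded for bin2-1. All seedlings were 7 days old and had grown upright on 1/2 MS medium at 22 °C with 16 h of light a day, and RNA came from about 1 cm of root tip. The contrast uses 4 of the 8 libraries of the series, 2 per group, and the second library of a group is titled a repeat, with nothing to show that it came from separately grown plants. The compared genes are the 19440 of 33557 genes with at least 1 FPKM (a read count per length of transcript and per depth of library) in either group. Each group has 1 deposited value per gene, which combines its libraries, so no replicate error stands beside any level and no test of the contrast was possible. The groups differ in genotype and, if the bin2-1 roots received no ABA, in treatment too, so the parts of genotype and treatment in a difference cannot be told apart.

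Abscisic acid (ABA) is the plant hormone of drought and salt stress. It binds receptors of the PYR/PYL family, which then hold back the clade A PP2C phosphatases; SnRK2 kinases are freed and switch on transcription factors such as the ABFs and ABI5, which bind ABRE sequences in promoters. Brassinosteroids are growth hormones sensed by BRI1 at the cell surface, and their signal shuts off BIN2, a GSK3-like kinase that otherwise inactivates the transcription factors BZR1 and BES1. The bin2-1 allele makes a hyperactive kinase, and its plants are dwarfed. BIN2 is also known to phosphorylate SnRK2s and ABI5, so the mutant bears on both hormones.

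Among genes not listed at 0 in bin2-1, the 3 with the largest deficit relative to Col+ABA were LEA4-5, RD29B and LEA7, all known as ABA-induced protective genes. Their promoters are shown because these genes rank first by ratio, and the motif bound by ABA transcription factors recurs in them. The windows are the 250 bases before the gene start in the RefSeq annotation of TAIR10.1, written 5′ to 3′ along the gene, with the ABRE core (ACGTG, on either strand) in capitals. The palindrome CACGTG, the G-box, holds a core on each strand and counts as 2 cores.
LEA4-5 (AT5G06760, chr5:2090431-2090680, minus strand): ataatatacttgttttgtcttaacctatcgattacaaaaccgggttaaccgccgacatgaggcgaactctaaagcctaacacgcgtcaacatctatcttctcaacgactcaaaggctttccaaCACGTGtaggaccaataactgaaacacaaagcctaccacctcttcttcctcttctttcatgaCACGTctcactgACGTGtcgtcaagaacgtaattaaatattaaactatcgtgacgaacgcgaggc
RD29B (AT5G52300, chr5:21236771-21237020, plus strand): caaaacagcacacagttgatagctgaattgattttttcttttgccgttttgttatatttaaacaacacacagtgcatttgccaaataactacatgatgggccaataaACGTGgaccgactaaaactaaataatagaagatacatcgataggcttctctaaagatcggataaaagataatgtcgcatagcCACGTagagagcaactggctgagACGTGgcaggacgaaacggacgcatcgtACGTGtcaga
LEA7 (AT1G52690, chr1:19619474-19619723, plus strand): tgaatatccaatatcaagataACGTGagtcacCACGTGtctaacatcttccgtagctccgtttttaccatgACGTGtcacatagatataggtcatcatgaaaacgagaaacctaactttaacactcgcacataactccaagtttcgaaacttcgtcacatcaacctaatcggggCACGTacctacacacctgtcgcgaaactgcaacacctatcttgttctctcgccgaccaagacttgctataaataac
LEA4-5 has 4 cores, at 127, 126, 65 and 53 bases before the start. RD29B has 4 cores, the nearest of them 10 bases before the start, and LEA7 has 5.

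The 3 genes with the largest excess in bin2-1 and a value above 0 in Col+ABA are set beside them. AT4G16215 is annotated as a gene of an uncharacterized protein, SADHU3-2 as a non-coding retrotransposon and AT1G60020 as a pseudogene. Their windows hold no ABRE core and so have no capitals.
AT4G16215 (chr4:9179834-9180083, minus strand): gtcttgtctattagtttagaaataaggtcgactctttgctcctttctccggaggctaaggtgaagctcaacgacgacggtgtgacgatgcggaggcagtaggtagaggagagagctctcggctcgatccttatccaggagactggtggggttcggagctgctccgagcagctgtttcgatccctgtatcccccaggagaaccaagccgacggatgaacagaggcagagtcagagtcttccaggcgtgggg
SADHU3-2 (AT3G42658, chr3:14750295-14750544, minus strand): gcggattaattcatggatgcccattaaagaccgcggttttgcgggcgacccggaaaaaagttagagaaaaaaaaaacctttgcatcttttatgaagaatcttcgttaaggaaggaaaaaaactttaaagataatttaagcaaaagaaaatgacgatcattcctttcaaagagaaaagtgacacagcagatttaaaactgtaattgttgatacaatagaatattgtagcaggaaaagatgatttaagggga
AT1G60020 (chr1:22105126-22105375, minus strand): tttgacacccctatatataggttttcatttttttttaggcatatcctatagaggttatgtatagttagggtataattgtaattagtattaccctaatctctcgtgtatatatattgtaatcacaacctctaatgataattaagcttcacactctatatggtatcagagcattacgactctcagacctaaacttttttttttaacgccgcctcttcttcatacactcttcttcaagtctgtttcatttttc

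Of the 19440 compared genes, 2934 (15.1%) were at least 2-fold lower in bin2-1 than in Col+ABA and 2028 (10.4%) at least 2-fold higher, and the other 14478 (74.5%) lay within 2-fold. Ratios are log2 values of (bin2-1 + 0.1 FPKM) over (Col+ABA + 0.1 FPKM), which understates the change of genes of low level. The groups stand in separately normalized tables, and Col+ABA levels were divided by 0.938, the median over 18195 genes of Col-ABA in its own table over Col-ABA in the table of bin2-1. The median ratio was -0.05. Which direction held more genes depended on that scale: with both groups set to the same FPKM sum, the median moved to 0.30, and 3477 genes were then at least 2-fold higher and 2081 at least 2-fold lower in bin2-1. Over all genes, levels summed to 960451 FPKM in bin2-1 and 1224358 in rescaled Col+ABA. The 2934 genes at least 2-fold lower summed to 113669 FPKM in bin2-1 and 406157 in Col+ABA. As a single gene, the metallothionein gene MT1A had 10827 FPKM in bin2-1 and 25851 in Col+ABA. What lies behind the gap in sums was not tested. List medians below are read beside -0.05, the median of all compared genes. Counts of list members past 2-fold are read beside the shares of all compared genes, 15.1% lower and 10.4% higher.

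At least 4-fold lower in bin2-1 were 1164 genes (5.99%), with median levels of 2.63 FPKM in bin2-1, 29.6 in Col+ABA and 7.97 in Col-ABA. At least 4-fold higher were 633 genes (3.26%), with median levels of 6.23 FPKM in bin2-1, 0.464 in Col+ABA and 0.802 in Col-ABA. The ratio and the level minimum that chose these genes also set the medians in bin2-1 and Col+ABA, which are given as a description. At the level minimum, PP2-A10 was just inside with 1.00 FPKM in bin2-1 and 0.473 in Col+ABA, and AT4G05430 just outside, since its 0.9997 FPKM in bin2-1 and 0.441 in Col+ABA are both under 1.

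**Figure D1:**
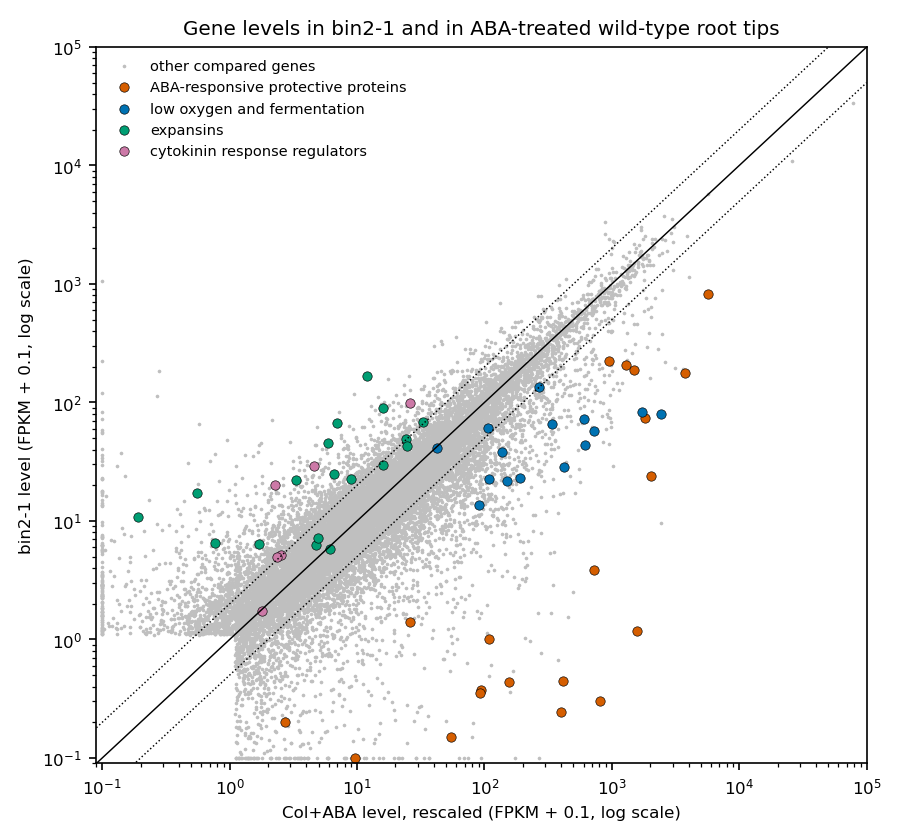
Level of each compared gene in bin2-1 (vertical) against its rescaled level in Col+ABA (horizontal), in FPKM + 0.1 on log axes; the solid line marks equal levels and the dotted lines a 2-fold difference. All 20 ABA-responsive protective genes lie under the lower dotted line, 12 of 15 low-oxygen genes do so too, and 13 of 18 expansins lie above the upper one.

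Among the genes at the centre of the study, ABI5 (AT2G36270, chromosome 2), a bZIP factor of ABA responses in seeds and seedlings, had 3.22 FPKM in bin2-1, 9.53 in Col+ABA and 0.998 in Col-ABA. The mutant level thus lay between the other levels, 1.54 below Col+ABA on the log2 scale. BIN2 (AT4G18710, chromosome 4) had 66.1 FPKM in bin2-1, 99.8 in Col+ABA and 102 in Col-ABA, a log2 ratio of -0.59. BZR1 (AT1G75080, chromosome 1) had 34.4 FPKM in bin2-1, 71.2 in Col+ABA and 72.2 in Col-ABA, a log2 ratio of -1.05, which was -0.70 with equal FPKM sums. For BIN2 and BZR1 the wild-type groups were close to each other and the mutant stood apart. The bin2-1 allele is known for its change of the protein, so the BIN2 level is no check of the genotype. In the authors' deposited table, BIN2 was lower in bin2-1 than in Col-ABA, with a log2 ratio of -0.63 and a q of 0.000188. What lies behind the lower transcript level was not tested.

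The ABA receptors split. Of 14 receptor genes 10 were compared; 4 were at least 2-fold higher in bin2-1, 3 at least 2-fold lower, and the median ratio was -0.04. PYL6 (AT2G40330) had 35.6 FPKM in bin2-1, 1.21 in Col+ABA and 85.3 in Col-ABA, a log2 ratio of 4.77. PYL4 had 144 FPKM in bin2-1, 44.3 in Col+ABA and 316 in Col-ABA, and PYL5 had 56.3, against 25.2 in Col+ABA and 257 in Col-ABA. These receptor transcripts were lower than Col-ABA in both groups, and further down in Col+ABA. PYL7 lay the other way, with 2.54 FPKM in bin2-1, 13.9 in Col+ABA and 2.77 in Col-ABA. PYR1, with the highest receptor level in bin2-1, had 156 FPKM there and 187 in Col+ABA, against 455 in Col-ABA. In the authors' deposited tables, at q under 0.05, 8 of 10 tested receptors were lower in bin2-1 than in Col-ABA (25.6% of all tested genes were) and 7 of 10 were lower in Col+ABA than in Col-ABA (9.51% of all). These comparisons share the Col-ABA libraries.

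All 9 clade A PP2C phosphatase genes, whose products block the SnRK2 kinases, were at least 2-fold lower in bin2-1, with a median log2 ratio of -4.20. HAI1 (AT5G59220) had 1.57 FPKM in bin2-1, 332 in Col+ABA and 0.910 in Col-ABA. PP2CA had 16.2 FPKM in bin2-1, 346 in Col+ABA and 13.4 in Col-ABA. At these genes the mutant was near Col-ABA and far below Col+ABA. ABI1 differed least but for HAB2, with 52.5 FPKM in bin2-1, 158 in Col+ABA and 16.6 in Col-ABA, so that the mutant level stood above the baseline. HAI2 had 0.168 FPKM in bin2-1 and 30.8 in Col+ABA, and HAI3 was listed at 0 in bin2-1 with 36.9 FPKM in Col+ABA. In the authors' deposited tables, 7 of 9 tested PP2C genes were higher in Col+ABA than in Col-ABA (15.1% of all tested genes were), and 4 of 7 were higher and 1 lower in bin2-1 than in Col-ABA (25.4% of all were higher). The q values of HAI2 and HAI3 for ABA were 0.194 in the authors' deposited table, in spite of the size of their differences.

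Of the 3 ABA-activated SnRK2 kinase genes, OST1 and SNRK2.3 were at least 2-fold lower in bin2-1 and SNRK2.2 was within 2-fold. OST1 (AT4G33950) had 8.92 FPKM in bin2-1, 110 in Col+ABA and 56.8 in Col-ABA, a log2 ratio of -3.61. The mutant level was thus below both wild-type levels. SNRK2.3 had 26.1 FPKM in bin2-1, 67.8 in Col+ABA and 57.7 in Col-ABA, and SNRK2.2 had 82.4, against 64.8 in Col+ABA and 77.2 in Col-ABA.

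Of 11 compared ABA transcription factors 9 were at least 2-fold lower in bin2-1 and none at least 2-fold higher, with a median log2 ratio of -2.84. HB12 (AT3G61890), a homeodomain factor, had 5.40 FPKM in bin2-1, 352 in Col+ABA and 5.71 in Col-ABA. The NAC factor RD26 had 4.18 FPKM in bin2-1, 214 in Col+ABA and 3.33 in Col-ABA. For both, the mutant and the baseline were close to each other. The ABRE-binding ABF1 had 28.1 FPKM in bin2-1, 171 in Col+ABA and 81.1 in Col-ABA, and ABF4 had 14.3, against 95.8 in Col+ABA and 33.6 in Col-ABA; for these the mutant was lowest of the groups. ABF3 had 22.6 FPKM in bin2-1, 343 in Col+ABA and 28.6 in Col-ABA. The bZIP genes AREB3 and EEL lay within 2-fold, with log2 ratios of 0.13 and 0.51. ABI3, ABI4 and DPBF2 were under the level minimum in both groups.

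All 20 ABA-responsive protective protein genes, mostly LEA proteins and dehydrins that shield cell contents during water loss, were at least 4-fold lower in bin2-1, and their median log2 ratio was -6.68. Their levels summed to 1723 FPKM in bin2-1, 21433 in Col+ABA and 1697 in Col-ABA. LEA4-5 had 0.201 FPKM in bin2-1, 804 in Col+ABA and 0.697 in Col-ABA, a log2 ratio of -11.38. RD29B had 0.143 FPKM in bin2-1, 402 in Col+ABA and 0.297 in Col-ABA, and LEA7 had 1.09, against 1587 in Col+ABA and 6.53 in Col-ABA. At these 3 genes the mutant was below Col-ABA too, at about 1 FPKM or less. Of the 3, only LEA7 had a q under 0.05 in the authors' deposited table of bin2-1 against Col-ABA, 0.000188. LEA4-5 had 0.0656 there, and the levels of LEA4-5 and RD29B were under 1 FPKM in both bin2-1 and Col-ABA. Other members were plentiful in the mutant and yet further up with ABA: KIN2 had 819 FPKM in bin2-1, 5666 in Col+ABA and 475 in Col-ABA, and XERO2 had 189, against 1504 in Col+ABA and 40.1 in Col-ABA. COR47 had 177 FPKM in bin2-1, 3734 in Col+ABA and 485 in Col-ABA. Against Col-ABA, the median log2 ratio of the 20 genes was -0.65 for bin2-1 and 6.20 for Col+ABA. In the authors' deposited tables, 3 of 15 tested members were higher and 5 lower in bin2-1 than in Col-ABA (25.4% of all tested genes were higher and 25.6% lower), and 19 of 20 were higher in Col+ABA than in Col-ABA (15.1% of all).

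**Figure D2:**
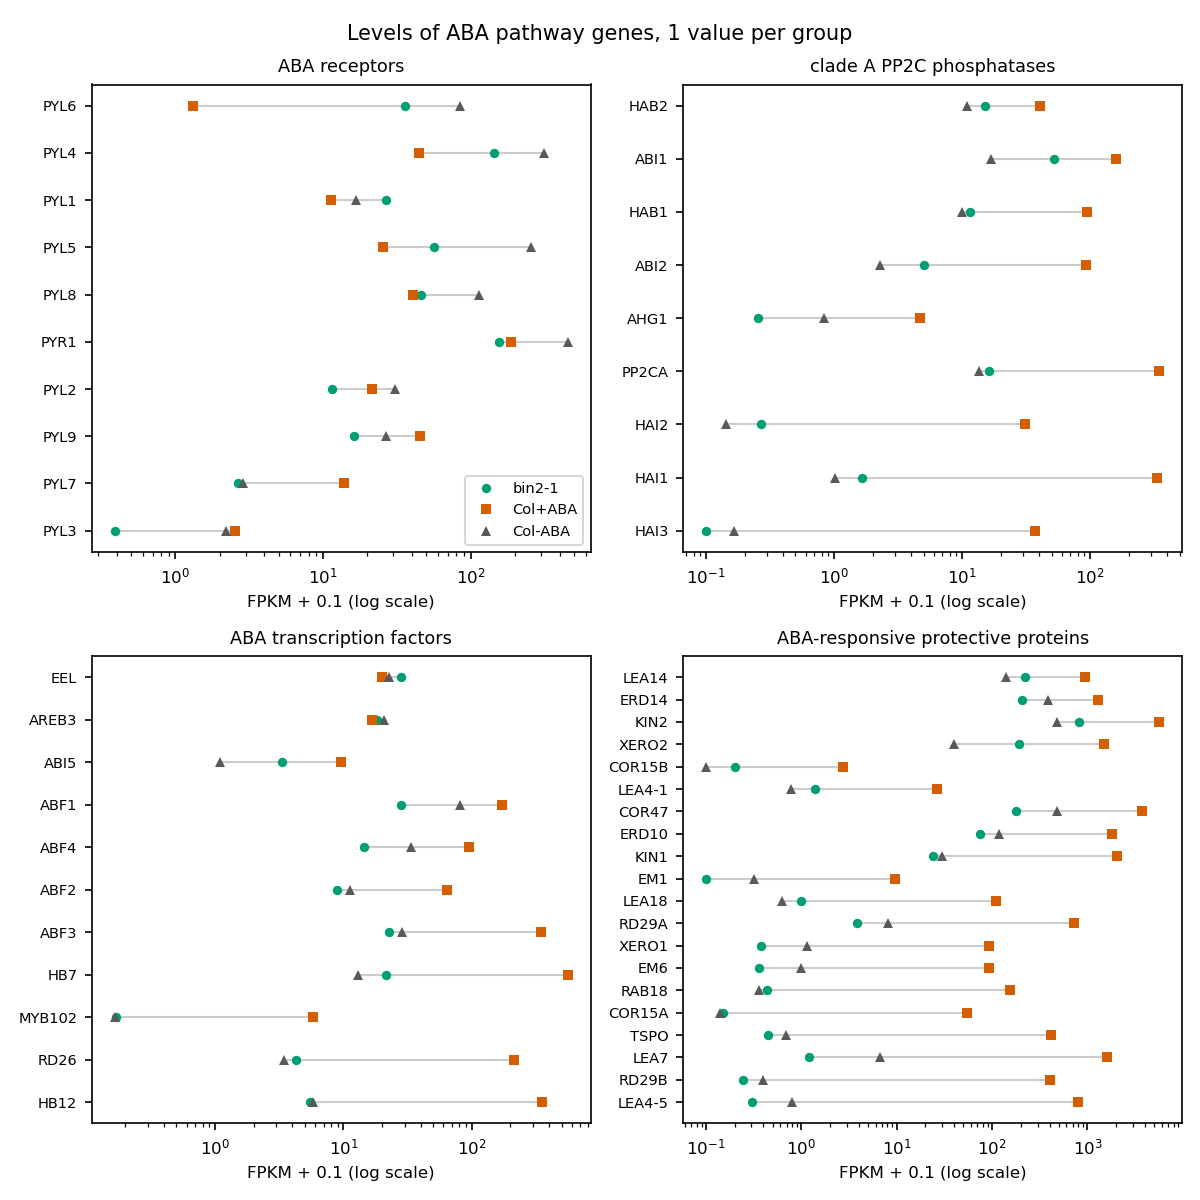
Levels of ABA receptors, clade A PP2C phosphatases, ABA transcription factors and ABA-responsive protective proteins in bin2-1 (circles), Col+ABA (squares) and Col-ABA (triangles), in FPKM + 0.1 on log axes, with 1 value per group and genes ordered by the ratio of bin2-1 to Col+ABA. For all 9 phosphatase genes and all 20 protective protein genes the Col+ABA square is farthest right, while for PYL6, PYL4 and PYL5 it is farthest left.

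Genes of ABA metabolism and osmolytes were partly lower. NCED3 (AT3G14440), which makes the rate-limiting ABA synthesis enzyme under drought, had 2.37 FPKM in bin2-1, 45.8 in Col+ABA and 0.673 in Col-ABA. Of 8 compared ABA synthesis genes 4 were at least 2-fold lower in bin2-1 and none higher, with a median log2 ratio of -1.42. That median was within 2-fold, at -0.42, with equal FPKM sums, and over all alternatives 2 to 4 members were at least 2-fold lower. NCED2 and NCED9, among the 4 lower members, passed the level minimum only through Col+ABA. NCED2 had 0.179 FPKM in bin2-1 and 1.15 in Col+ABA, and NCED9 had 0.0361 and 1.44. Equal FPKM sums lower the Col+ABA levels, and NCED2 then falls under the minimum, so the change of the median is not one of scale alone. ABA2, ABA3, ABA4 and AAO3 were within 2-fold. Of 5 compared genes of ABA breakdown and conjugation 4 were at least 2-fold lower; the ABA hydroxylase gene CYP707A1 had 11.2 FPKM in bin2-1, 117 in Col+ABA and 6.88 in Col-ABA. BG1, a beta-glucosidase that frees ABA from its conjugate, had 2.402 FPKM in bin2-1, 0.171 in Col+ABA and 0.311 in Col-ABA, a log2 ratio of 3.21. Of 8 osmolyte genes 4 were at least 2-fold lower and 2 at least 2-fold higher. GOLS2, for galactinol synthesis, had 1.56 FPKM in bin2-1, 262 in Col+ABA and 0.873 in Col-ABA. PRODH1, which breaks down proline, had 278 FPKM in bin2-1, 1280 in Col+ABA and 1326 in Col-ABA, so the mutant stood apart from both wild-type groups.

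The 12 largest deficits in bin2-1 among genes that reached 5 FPKM with ABA and were not listed at 0 in the mutant had log2 ratios between -11.38 and -8.28. Besides LEA4-5, RD29B, LEA7, COR15A and the dehydrin gene RAB18, they included TSPO, a membrane protein related to tryptophan-rich sensory proteins, with 0.345 FPKM in bin2-1, 417 in Col+ABA and 0.588 in Col-ABA. AT3G17520 is annotated as a LEA protein, AT2G21820 as a seed maturation protein and AT3G03341 as a cold-regulated protein. AT3G17520 had 0.569 FPKM in bin2-1, 378 in Col+ABA and 0.682 in Col-ABA. AT1G49450, a WD40 repeat gene, had 0.671 FPKM in bin2-1, 278 in Col+ABA and 0.546 in Col-ABA. AT5G50360 and AT5G05220 had 81.5 and 79.6 FPKM in Col+ABA and under 0.1 in bin2-1. All 12 had under 7 FPKM in Col-ABA. In the authors' deposited table of Col+ABA against Col-ABA, COR15A had a q of 0.475 and AT5G50360 a q of 0.0538. The others of the 12 had a q under 0.05 there.

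Of 15 compared brassinosteroid signalling genes 2 were at least 2-fold higher in bin2-1 and 2 at least 2-fold lower, where 10.4% of all compared genes were higher and 15.1% lower, and their median log2 ratio was -0.08. The receptor gene BRI1 had 39.4 FPKM in bin2-1, 33.5 in Col+ABA and 49.1 in Col-ABA. Its relatives BRL1 and BRL3, receptors of the vascular tissue, had log2 ratios of 1.42 and 1.29. BES1, the close relative of BZR1, had 27.3 FPKM in bin2-1, 63.8 in Col+ABA and 52.3 in Col-ABA. The BIN2 relatives BIL1 and BIL2 had ratios of 0.04 and 0.09. Of 13 genes of synthesis and inactivation 3 were at least 2-fold higher and 1 at least 2-fold lower, with a median of 0.34. BR6OX2, for the last step to active brassinosteroid, had 19.4 FPKM in bin2-1, 6.14 in Col+ABA and 7.99 in Col-ABA. CYP90D1 had 6.95 FPKM in bin2-1, 2.56 in Col+ABA and 11.8 in Col-ABA, while SOB7, a cytochrome P450 that inactivates brassinosteroids, had 5.64, against 30.2 in Col+ABA and 18.1 in Col-ABA.

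Of 9 brassinosteroid-responsive growth genes, 4 were compared and 2 of them were at least 2-fold lower in bin2-1. TCH4 (AT5G57560), a xyloglucan endotransglucosylase, had 46.3 FPKM in bin2-1, 849 in Col+ABA and 596 in Col-ABA. BEE1, a bHLH factor, had 0.469 FPKM in bin2-1, 7.58 in Col+ABA and 15.2 in Col-ABA. For both, the mutant was far below either wild-type group. IBH1 and IAA19 had ratios of -0.55 and -0.20.

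Of 18 compared expansin genes, whose products loosen the cell wall during growth, 13 were at least 2-fold higher in bin2-1 and none at least 2-fold lower, with a median log2 ratio of 1.93. Expansin levels summed to 687 FPKM in bin2-1, 175 in Col+ABA and 195 in Col-ABA. EXPA9 (AT5G02260) had 167 FPKM in bin2-1, 11.9 in Col+ABA and 18.9 in Col-ABA. EXPA17 had 10.7 FPKM in bin2-1, 0.0924 in Col+ABA and 0.173 in Col-ABA, and EXPA12 had 17.2, against 0.451 in Col+ABA and 0.297 in Col-ABA. The wild-type groups were near each other at these genes. In the authors' deposited tables, 15 of 18 tested expansins were higher in bin2-1 than in Col-ABA (25.4% of all tested genes were), whereas 1 of 16 was higher and 4 were lower in Col+ABA than in Col-ABA (15.1% and 9.51% of all). The XTH family, which cuts and rejoins xyloglucan, was mixed: 10 of 25 compared members were at least 2-fold lower and 5 at least 2-fold higher. XTH31 had 71.6 FPKM in bin2-1, 2.05 in Col+ABA and 1.23 in Col-ABA, while XTH24 had 74.7, against 938 in Col+ABA and 593 in Col-ABA. None of 12 genes for cellulose synthases and secondary walls differed 2-fold.

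Markers of root cell types stood as follows, where 10.4% of all compared genes were at least 2-fold higher in bin2-1 and 15.1% lower. Of 12 root hair genes 4 were at least 2-fold higher in bin2-1 and none lower, with a median of 0.65. RSL4 (AT1G27740), a master factor of hair growth, had 26.8 FPKM in bin2-1, 3.38 in Col+ABA and 6.63 in Col-ABA. The hair expansin gene EXPA7 had 89.6 FPKM in bin2-1, 15.8 in Col+ABA and 18.4 in Col-ABA, and COBL9 had 36.9, against 12.2 in Col+ABA and 12.7 in Col-ABA. These 3 had the largest differences of the list, whose lowest log2 ratio was -0.54. In the authors' deposited tables, 8 of 12 were higher and 3 lower in bin2-1 than in Col-ABA (25.4% and 25.6% of all tested genes). RSL2 and RHD2 were lower there, with log2 ratios of -2.15 and -0.69. In bulk root tips, a different number of cells of a type and a different amount of RNA per cell cannot be told apart. Of 9 genes of the Casparian strip, the endodermal barrier, 2 were at least 2-fold lower and 1 higher; CASP1 had 102 FPKM in bin2-1, 223 in Col+ABA and 167 in Col-ABA. Of 15 compared suberin genes 9 were at least 2-fold lower and none higher, with a median of -1.57. The suberin regulator gene MYB41 had 1.63 FPKM in bin2-1, 86.6 in Col+ABA and 1.25 in Col-ABA, and KCS2, for chain elongation, had 16.1, against 122 in Col+ABA and 4.87 in Col-ABA. ASFT, which adds ferulate to suberin, lay within 2-fold, with 58.2 FPKM in bin2-1, 72.8 in Col+ABA and 9.82 in Col-ABA, so that both groups were above the baseline.

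Of 12 genes in a list that mixes auxin carriers with root patterning factors, 5 were at least 2-fold higher in bin2-1 (PIN7, AUX1, LAX3, WOX5 and PLT2) and none at least 2-fold lower, with a median of 0.72. The efflux carrier gene PIN7 had 32.4 FPKM in bin2-1, 11.8 in Col+ABA and 19.8 in Col-ABA, and the influx carrier AUX1 had 61.2, against 25.2 in Col+ABA and 43.2 in Col-ABA. The efflux carrier gene PIN4 lay the other way, with 6.45 FPKM in bin2-1, 12.3 in Col+ABA and 7.44 in Col-ABA, a log2 ratio of -0.92. WOX5, expressed in the quiescent centre of the root, had 10.7 FPKM in bin2-1, 4.76 in Col+ABA and 1.94 in Col-ABA. Early auxin-response genes were split, with 3 of 15 at least 2-fold higher and 4 at least 2-fold lower. GH3.3, which conjugates auxin, had 31.7 FPKM in bin2-1, 3.49 in Col+ABA and 6.45 in Col-ABA, and the repressor gene IAA3 had 1.34, against 15.4 in Col+ABA and 4.75 in Col-ABA. Of 17 cell cycle genes only KRP1, a kinase inhibitor gene, differed 2-fold, with 4.89 FPKM in bin2-1, 13.5 in Col+ABA and 11.0 in Col-ABA.

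Type-A response regulators are induced by cytokinin and dampen its signal. Of 6 genes 5 were at least 2-fold higher, with a median log2 ratio of 1.51. ARR6 (AT5G62920) had 20.0 FPKM in bin2-1, 2.16 in Col+ABA and 1.13 in Col-ABA. ARR5 had 29.1 FPKM in bin2-1, 4.47 in Col+ABA and 3.96 in Col-ABA, and ARR4 had 99.3, against 25.9 in Col+ABA and 13.5 in Col-ABA. ARR16 had 1.65 and 1.70 FPKM in bin2-1 and Col+ABA. Other hormones gave no common direction. Of 7 compared ethylene genes 1 was at least 2-fold higher and 2 lower, of 8 gibberellin genes 1 higher and 1 lower, and of 12 jasmonate genes 1 higher and 3 lower. Among all compared genes 10.4% were higher and 15.1% lower. The ethylene synthesis gene ACS7 had 7.12 FPKM in bin2-1, 46.9 in Col+ABA and 9.58 in Col-ABA, and the gibberellin-inactivating GA2OX6 had 4.02, against 20.8 in Col+ABA and 1.86 in Col-ABA. The jasmonate repressor gene JAZ7 had 4.05 FPKM in bin2-1, 35.0 in Col+ABA and 4.61 in Col-ABA.

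**Figure D3:**
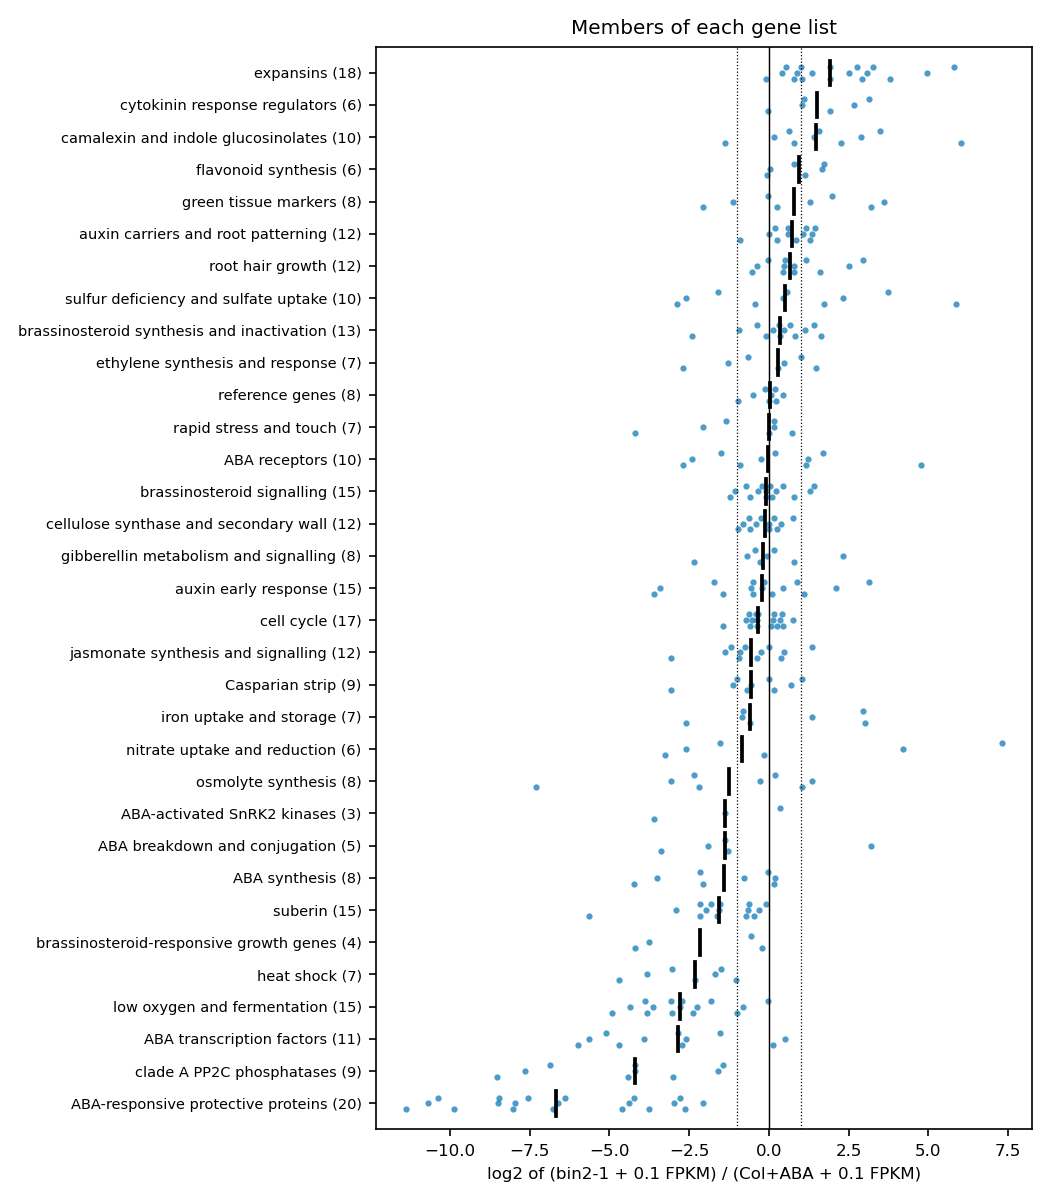
Log2 ratio of bin2-1 to Col+ABA for every compared member (points) of the 33 gene lists, with the number of compared members in parentheses and the list median as a black bar; dotted lines mark a 2-fold difference. Medians run from -6.68 for ABA-responsive protective proteins to 1.93 for expansins.

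Low-oxygen genes, which switch roots to fermentation, were mostly lower in the mutant than in ABA-treated roots, and their summed level was highest in Col-ABA. Of 15 such genes 12 were at least 2-fold lower in bin2-1 and none higher, with a median log2 ratio of -2.78. Their levels summed to 788 FPKM in bin2-1, 7930 in Col+ABA and 17521 in Col-ABA. The alcohol dehydrogenase gene ADH1 (AT1G77120) had 80.4 FPKM in bin2-1, 2419 in Col+ABA and 5208 in Col-ABA, and the pyruvate decarboxylase gene PDC1 had 83.8, against 1716 in Col+ABA and 2946 in Col-ABA. SUS4, a sucrose synthase, had 28.5 FPKM in bin2-1, 420 in Col+ABA and 1380 in Col-ABA. HRE1, an ethylene response factor of low oxygen, was an exception, with 41.1 FPKM in bin2-1 and 42.4 in Col+ABA, against 634 in Col-ABA. In the authors' deposited tables, all 15 genes were lower in bin2-1 than in Col-ABA (25.6% of all tested genes were) and 14 of 15 were lower in Col+ABA than in Col-ABA (9.51% of all). Both comparisons share the Col-ABA libraries, whereas the ratio of bin2-1 to Col+ABA involves them only through the scale.

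All 7 heat shock genes were at least 2-fold lower in bin2-1, with a median log2 ratio of -2.31. HSP17.4, a small chaperone gene, had 2.104 FPKM in bin2-1, 56.8 in Col+ABA and 35.4 in Col-ABA. HSP101 had 4.93 FPKM in bin2-1, 41.2 in Col+ABA and 21.0 in Col-ABA, and the factor gene HSFA2 had 1.95, against 10.05 in Col+ABA and 8.52 in Col-ABA. The mutant was lowest of the groups at these 3 genes. Of 7 rapid stress and touch genes, TCH4, TCH3 and ZAT12 were at least 2-fold lower and the other 4 within 2-fold; the zinc finger gene ZAT12 had 192 FPKM in bin2-1, 796 in Col+ABA and 410 in Col-ABA.

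**Figure D4:**
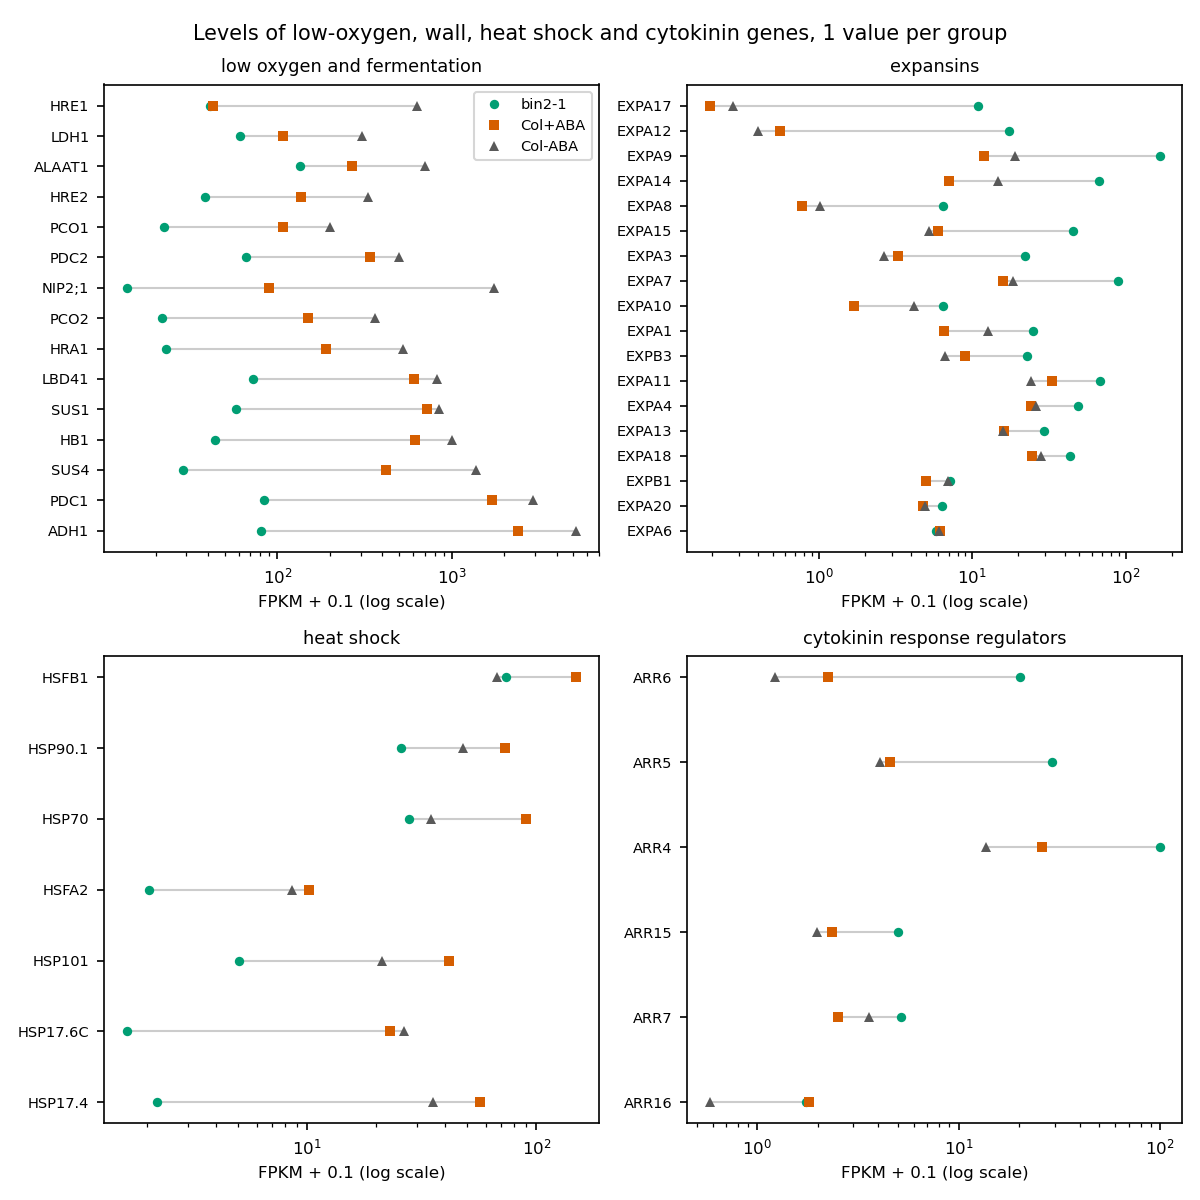
Levels of low-oxygen, expansin, heat shock and cytokinin response regulator genes in bin2-1 (circles), Col+ABA (squares) and Col-ABA (triangles), in FPKM + 0.1 on log axes, with 1 value per group and genes ordered by the ratio of bin2-1 to Col+ABA. The bin2-1 circle lies farthest left for all 15 low-oxygen genes and farthest right for most expansins and response regulators, such as EXPA9 (167 FPKM) and ARR4 (99.3 FPKM).

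Of 10 genes for camalexin and indole glucosinolates, tryptophan-derived defence compounds, 6 were at least 2-fold higher in bin2-1 and 1 lower, with a median log2 ratio of 1.49. CYP71A12 had 30.9 FPKM in bin2-1, 0.372 in Col+ABA and 0.223 in Col-ABA. Its near-identical neighbour CYP71A13 had 1.02 FPKM in bin2-1 and was listed at 0 in Col+ABA, and reads of the pair may have been shared out in part. CYP83B1 had 297 FPKM in bin2-1, 39.8 in Col+ABA and 91.0 in Col-ABA. WRKY33, a factor that activates camalexin genes, was lower, with 89.0 FPKM in bin2-1, 228 in Col+ABA and 132 in Col-ABA. Of 6 compared flavonoid genes 3 were at least 2-fold higher and none lower, among them the chalcone synthase gene TT4 with 426 FPKM in bin2-1, 134 in Col+ABA and 87.4 in Col-ABA.

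Nitrogen genes parted in both directions. The nitrate transporter gene NRT2.6 (AT3G45060) had 24.0 FPKM in bin2-1, 0.0512 in Col+ABA and 0.166 in Col-ABA, and NRT1.8, which unloads nitrate from the xylem, had 17.98, against 0.882 in Col+ABA and 1.39 in Col-ABA. The nitrate reductase gene NIA1 had 31.7 FPKM in bin2-1, 304 in Col+ABA and 290 in Col-ABA, and the transceptor NRT1.1 had 76.5, against 467 in Col+ABA and 508 in Col-ABA. Of 6 compared nitrate genes 2 were at least 2-fold higher and 3 at least 2-fold lower. Of 10 sulfur genes 4 were at least 2-fold higher and 3 lower. The sulfate reductase gene APR3 had 118 FPKM in bin2-1, 23.4 in Col+ABA and 19.7 in Col-ABA, and SDI1, a sulfur-deficiency marker, had 9.32, against 0.610 in Col+ABA and 0.839 in Col-ABA. The sulfate transporter gene SULTR1;2 had 22.2 FPKM in bin2-1, 134 in Col+ABA and 109 in Col-ABA. Of 7 compared iron genes 3 were at least 2-fold higher and 1 lower. The iron transporter gene IRT1 had 11.5 FPKM in bin2-1, 1.33 in Col+ABA and 2.68 in Col-ABA, and the iron store gene FER1 had 127, against 768 in Col+ABA and 184 in Col-ABA.

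Larger families, taken from RefSeq symbols and product names, held members in both directions. Among all compared genes 10.4% were at least 2-fold higher in bin2-1 and 15.1% at least 2-fold lower. Of 46 compared histone entries 20 were at least 2-fold lower in bin2-1 and 1 higher, with a median log2 ratio of -0.93 and summed levels of 5595 FPKM in bin2-1, 11137 in Col+ABA and 10090 in Col-ABA. The linker histone gene HIS1-3, known to respond to drought, had 1.44 FPKM in bin2-1, 68.0 in Col+ABA and 24.8 in Col-ABA. AT3G53650, a histone superfamily gene, had 33.8 FPKM in bin2-1 and was listed at 0 in Col+ABA and Col-ABA. Of 39 compared SAUR genes, a family of small auxin-responsive proteins, 21 were at least 2-fold higher and 9 lower, with a median of 1.14. AT5G10990 had 29.1 FPKM in bin2-1, 1.02 in Col+ABA and 0.937 in Col-ABA, whereas AT5G50760, with the largest SAUR level in Col+ABA, had 26.0 in bin2-1, 270 in Col+ABA and 191 in Col-ABA. Of 27 compared aquaporins, the water channels, 8 were at least 2-fold lower and 3 higher. TIP2;2 had 31.9 FPKM in bin2-1, 261 in Col+ABA and 155 in Col-ABA, and PIP1C had 230, against 1309 in Col+ABA and 932 in Col-ABA.

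The wider LEA family, taken by annotation, had 31 of 70 compared members at least 2-fold lower and 7 higher. Of 53 compared class III peroxidases 14 were at least 2-fold higher and 9 lower, of 51 glutathione transferases 13 higher and 13 lower, and of 58 WRKY factors 13 higher and 18 lower. Of 144 cytochromes P450 36 were higher and 33 lower, of 95 UDP-glycosyltransferases 22 higher and 18 lower, and of 82 extensins and arabinogalactan proteins 9 higher and 18 lower. These counts stand beside 10.4% higher and 15.1% lower among all compared genes. CYP81D11, a cytochrome P450, had 4 FPKM in bin2-1, 207 in Col+ABA and 32.0 in Col-ABA. Of 323 ribosomal protein genes 5 were higher and 7 lower, with a median of -0.12. WRKY59 had 10.9 FPKM in bin2-1, 0.0827 in Col+ABA and 3.02 in Col-ABA, and WRKY22 had 5.36, against 85.7 in Col+ABA and 65.2 in Col-ABA.

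The 12 largest excesses were taken among genes that reached 5 FPKM in bin2-1 and were not listed at 0 in Col+ABA. They had log2 ratios between 5.88 and 9.36, and pseudogenes, a retroelement, a noncoding RNA gene and genes of unknown product made up most of them. AT4G16215 had 183 FPKM in bin2-1, 0.178 in Col+ABA and was listed at 0 in Col-ABA. SADHU3-2 had 113 FPKM in bin2-1, 0.168 in Col+ABA and 0.0244 in Col-ABA, and AT1G60020 had 37.6, against 0.0410 in Col+ABA and 0.0288 in Col-ABA. All 3 were under 0.2 FPKM in both wild-type groups. AT5G34871, a noncoding RNA gene, had 65.8 FPKM in bin2-1, 0.472 in Col+ABA and 0.452 in Col-ABA. AT4G19240 had 29.0 FPKM in bin2-1, AT5G44925 had 16.3 and AT5G56747 had 8.56, and all 3 were under 0.2 FPKM in both wild-type groups. Besides NRT2.6, CYP71A12 and WRKY59, the annotated genes were the dirigent gene DIR5, with 14.8 FPKM in bin2-1, 0.134 in Col+ABA and 5.55 in Col-ABA, and the beta-glucosidase gene BGLU28, with 6.80, against 0.0170 in Col+ABA and 0.0160 in Col-ABA. In the authors' deposited table of bin2-1 against Col-ABA, SADHU3-2, AT5G56747 and BGLU28 had a q of 0.337. AT5G34871 had a q of 0.095 there and AT5G44925 a q of 0.0552. The others of the 12 had a q under 0.05, among them AT4G16215 with 0.000188.

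A further 205 compared genes were listed at 0 in 1 group, 79 of them in bin2-1 and 126 in Col+ABA, and no ratio is printed for them, since the pseudocount sets it. Those with the highest levels were mostly short or noncoding. AT3G41768, annotated as ribosomal RNA, had 1068 FPKM in bin2-1, and AT3G12835 had 223; both were listed at 0 in Col+ABA and Col-ABA. The microRNA gene MIR398b was listed at 0 in bin2-1, with 270 FPKM in Col+ABA and 95.5 in Col-ABA, and MIR397b had 121 in bin2-1, was listed at 0 in Col+ABA and had 230 in Col-ABA. The chloroplast gene ATCG00080 had 175 FPKM in Col+ABA and was listed at 0 in the other groups. Per-length values of such short transcripts rest on few fragments, and the libraries were made for mRNA.

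Promoter motifs were counted next, a property that was not used to choose genes. Among genes at least 16-fold lower in bin2-1, 150 of 276 promoters (54.3%, 95% Wilson interval 48.5 to 60.1) held an ABRE core within 250 bases. Among genes at least 4-fold lower the share was 40.5% (37.7 to 43.4, n = 1147), among genes at least 4-fold higher 26.6% (23.3 to 30.2, n = 620), and among genes at least 16-fold higher 20.4% (14.8 to 27.4, n = 157). All compared genes with a window gave 24.2% (23.6 to 24.8, n = 19286). The G-box stood in 29.3% of genes at least 16-fold lower, 18.6% of genes at least 4-fold lower, 4.52% of genes at least 4-fold higher and 7.55% of all. Genes with a large deficit in bin2-1 thus carried the ABRE core more often than compared genes at large, and the intervals of both sets with an excess took in the share of all compared genes. LEA4-5, RD29B and LEA7, shown above, belong to the 35.5% of genes at least 16-fold lower that hold 2 or more cores, against 1942 of the 19286 windows of all compared genes. A single G-box counts as 2 cores here, so these shares include promoters with 1 G-box and no other core. The G-box stood in 81 of the 276 promoters and in 1456 of the 19286.

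The brassinosteroid response element (CGTGTG or CGTGCG), which BZR1 is known to bind and which can overlap an ABRE core or a G-box, stood in 10.7% of genes at least 4-fold lower, 8.39% of genes at least 4-fold higher and 7.12% of all. At 16-fold its share was 13.0% (9.57 to 17.5) of the lower and 5.73% (3.04 to 10.5) of the higher genes. The W-box of WRKY factors (TTGACC or TTGACT) stood in 26.5% of the lower, 31.9% of the higher and 28.6% of all. At 16-fold the W-box share was 22.5% (17.9 to 27.7) of the lower, an interval below the share of all, and 35.0% (28.0 to 42.8) of the higher genes. Both strands were searched, intervals cover counting error only, and a match is no proof of a binding site.

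**Figure D5:**
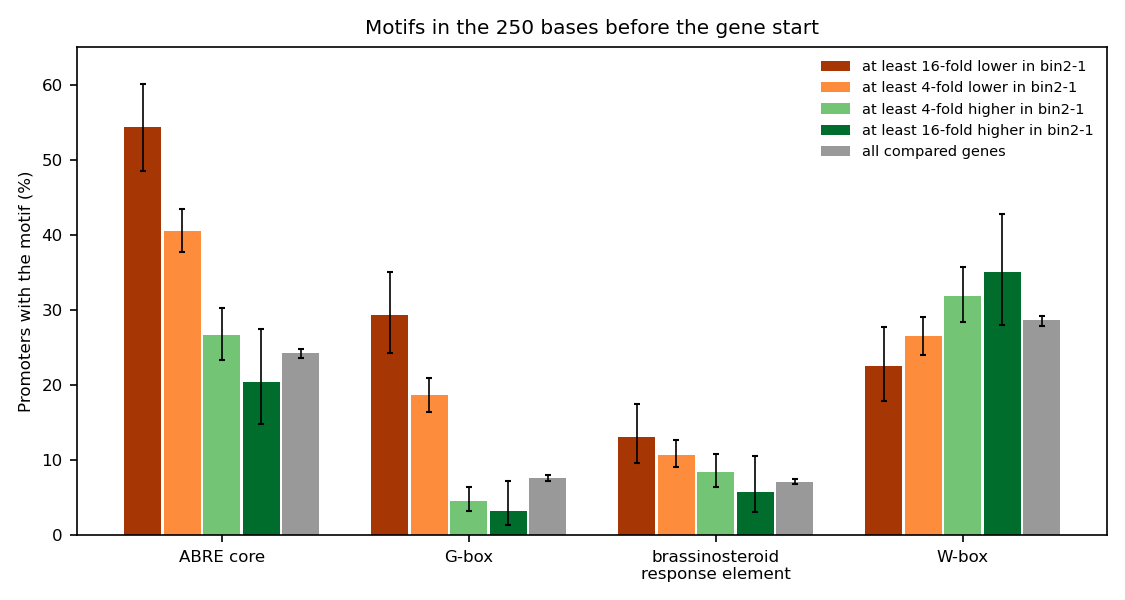
Share of promoters (250 bases before the gene start) that hold each of 4 motifs on either strand, in percent, for genes at least 16-fold lower, 4-fold lower, 4-fold higher and 16-fold higher in bin2-1 than in Col+ABA and for all compared genes; error bars are 95% Wilson intervals. The ABRE core stands in 54.3% of genes at least 16-fold lower and in 24.2% of all compared genes.

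Checks of tissue and scale gave the following. Of 15 green tissue markers 8 were compared, with 4 at least 2-fold higher in bin2-1 and 2 lower; they summed to 34.0 FPKM in bin2-1, 43.8 in Col+ABA and 24.98 in Col-ABA. GLK2, a factor of chloroplast development, had 4.88 FPKM in bin2-1, 0.311 in Col+ABA and 0.333 in Col-ABA, and GLK1 was under 0.1 in all 3. The part of green tissue in the results was not tested. All 9 Casparian strip and all 12 root hair genes passed the level minimum. None of 8 reference genes differed 2-fold, and their median was 0.03; UBQ10 was farthest, with 896 FPKM in bin2-1, 1765 in Col+ABA and 1232 in Col-ABA.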

How the data were processed

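RNA-seq libraries (TruSeq, HiSeq2000, pooled in sixes) of Arabidopsis root tips were grouped by their titles. Reads went through TopHat and Cufflinks with TAIR10, per the submitters' processing notes; versions not given in the sources used here. The authors deposited 1 value per group in 3 tables of 33557 genes, with a ratio, a p-value and a q-value; the group values were read as FPKM deposited by the authors, since the notes name Cufflinks. The fold, that is the ratio of group values, was deposited by the authors and served only as an alternative. Each p-value and q-value was deposited by the authors, and their test is not named; q under 0.05 is the threshold. Depth is unknown, so counting precision of a level cannot be given.

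Col+ABA was divided by 0.938 (range 0.936 to 0.944 over 18195 genes), and ratios used a pseudocount of 0.1 FPKM among genes with at least 1 FPKM in either group. 2-fold is a size, not a test. The code for ratios and calls was run on simulated data with planted changes well past the threshold and little noise. That run checks the arithmetic and gives no error rate for the calls. Symbols, products and promoter windows come from RefSeq for TAIR10.1 (32810 identifiers matched), whose annotation may differ from the one used for counting. Strand use is not stated, so antisense partners and near-identical copies may share reads.

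Named were ABI5, BIN2, BZR1, the 12 largest ratios each way, the 3 largest per list, and up to 5 genes listed at 0 in 1 group with 50 FPKM or more in the other. The 12 each way were ranked among genes with 5 FPKM or more in the higher group and above 0 in the lower. Other named members were picked after their values were seen. The comparison, its 33 lists and 12 families were chosen with earlier results of these data known. Alternatives were 2 pseudocounts, 2 filters, 3 scalings, the second bin2-1 column and the difference of deposited fold changes. Python 3.11.15 with numpy 2.4.6, pandas 2.3.3 and scipy 1.17.1 was used.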

Additional observations from a re-analysis of the deposited data

How the results depend on the processing

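No named ratio or list median of 2-fold or more changed sign under any alternative; 14 of 45 lists and families, none with a median of 2-fold or more, changed sign under some alternative (11 of them under a scaling), and so did the median of all compared genes. With at least 5 FPKM in either group, the median of green tissue markers was -1.58 in place of 0.78 and that of iron genes 1.08 in place of -0.58. The median of ABA synthesis genes, -1.42, ranged from -1.43 to -0.40. With a pseudocount of 1, 307 genes in place of 633 were at least 4-fold higher in bin2-1. With at least 5 FPKM in either group, 15104 genes were compared in place of 19440. Then 1270 genes in place of 2028 were at least 2-fold higher, and 355 in place of 633 at least 4-fold higher. At least 2-fold lower were 2317 in place of 2934, so the higher genes fell by a larger part than the compared genes did. With equal FPKM sums, 3477 genes were at least 2-fold higher and 2081 at least 2-fold lower (62.6% and 37.4% of such genes, against 40.9% and 59.1%), and the median ratio was 0.301. The other 58 of 63 values kept within 1.5 times the count, or within the margin set for a median or share. Of 1342 ratios of named genes under an alternative, 1328 kept their side of 2-fold, 11 dropped under it and 3 passed it. BZR1, at -1.05, had -0.96 without rescaling and -0.70 with equal FPKM sums, and was just within 2-fold when centred on the median. The ABRE core share ranged from 38.7% to 42.9% in genes at least 4-fold lower and from 24.4% to 30.0% in genes at least 4-fold higher. No paired analysis was possible because each group has 1 combined value and no columns per library; leaving out a library was not possible for the same reason.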

Other observations

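A set of genes was at 5 FPKM or more in 1 group and under 0.2 FPKM in each of the other 3, bzr1-D/bin2-1 (the double mutant with stabilised BZR1) included. This look was chosen after the values were seen. In bin2-1 there were 21 such genes. AT4G19239 had 73.0 FPKM in bin2-1 and was listed at 0 elsewhere, and its neighbour AT4G19240, next to it on chromosome 4, had 29.0 FPKM in bin2-1, against 0.0317 in Col+ABA. The sucrose symporter gene SUC7 had 6.65 FPKM in bin2-1 and 0.0233 in Col+ABA, and was listed at 0 in Col-ABA and the double mutant. Other members were AT3G12835, AT4G16215, AT1G60020, and short noncoding genes such as SNOR30 and MIR775. In the authors' deposited table of bin2-1 against Col-ABA, AT4G19239 and SUC7 had a q of 0.000188 and MIR775 a q of 0.11.

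In Col+ABA there were 20 such genes, among them COR15A, the AOX2 gene of alternative respiration and the caleosin gene RD20. RD20 had 13.6 FPKM in Col+ABA and 0.0334 in bin2-1. GASA3 was listed at 0 in bin2-1 with 36.5 FPKM in Col+ABA and 0.112 in Col-ABA. In the authors' deposited table of Col+ABA against Col-ABA, COR15A, RD20 and GASA3 had q values of 0.475, 0.446 and 0.119. AOX2 had a q of 0.0493 there.

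AT3G53650, EXPA17 and EXPA12 had levels in the double mutant near those in bin2-1: 32.1, 11.8 and 16.5 FPKM. CYP71A12 had 2.48 FPKM in the double mutant and BGLU28 0.451, nearer to the wild-type groups.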
